A study of Mus musculus with 6 samples.

Results

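The enzymes that make and remove superoxide and hydrogen peroxide were followed in As4.1 cells under 3 conditions. The genes were the superoxide dismutases Sod1, Sod2 and Sod3, catalase (Cat), and the NADPH oxidase components Nox4, Nox1, Cyba, Cybb, Ncf1 and Duox2. Members were the probe sets that the array annotation assigns to 1 of these 10 genes alone, whatever their signal. There were 22 such probe sets, for 8 of the genes, among 45101 probe sets on the array. The array held probe sets of their own for 18193 genes in all. Nox1 and Duox2 had no probe set of their own in the annotation used and are not analysed here. As4.1 is an established mouse line of renin-producing cells, derived from a kidney tumour of a transgenic mouse in which the renin promoter drove the SV40 large T antigen. The 3 groups received vehicle, hydrogen peroxide or an interleukin. The labels give neither the type of interleukin nor the doses and times. Each group had 2 samples, numbered 1 and 2 in their titles and taken here as separate cultures. Each was hybridised to 1 Affymetrix mouse array, so all 6 arrays share 1 transformed line. All p-values rest on the spread between the 2 samples of each group. In the main fit this spread is drawn towards that of other probe sets of similar signal.

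Superoxide arises when an electron is passed to oxygen, for which the NADPH oxidases are dedicated enzymes. Superoxide dismutases turn superoxide into hydrogen peroxide and oxygen, each in its own place: Sod1 is the copper and zinc enzyme of the cytosol, Sod2 the manganese enzyme of mitochondria, and Sod3 a secreted copper and zinc enzyme that binds the extracellular matrix. Catalase, mostly in peroxisomes, breaks hydrogen peroxide down to water and oxygen. Nox1, Nox4 and Cybb (the phagocyte catalytic subunit, also called gp91phox or Nox2) each pair in the membrane with Cyba (p22phox), and Ncf1 (p47phox) is a cytosolic organizer of the phagocyte enzyme. Duox2 makes hydrogen peroxide mainly in epithelia and the thyroid. In the kidney, these oxidants are studied for their part in vascular tone and in renin release.

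Sod2 stood far above vehicle in both interleukin cultures and not in the hydrogen peroxide cultures. Sod3 went opposite ways, higher under interleukin and lower under hydrogen peroxide, and Cyba was higher under both. No probe set of Sod1 or Cat passed the test. Nox4, Cybb and Ncf1 gave signals too dim to be tested.

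Promoters are shown for 4 members with tested signals. Under interleukin Sod2 and Cyba passed the test as higher, while Sod1 and Cat did not pass. No member was tested against another, and Cat was also higher in fitted value at both probe sets (log2 0.29 and 0.42). The sequences are those of RefSeq on mouse build GRCm38.p6, in which 9 of the 10 members were matched. The one not matched was Sod3. Each window holds the 250 bases before the annotated start, read 5′ to 3′ on the strand of the gene, at chr16:90220512-90220761 (plus strand) for Sod1, chr17:13007589-13007838 (plus) for Sod2, chr2:103485154-103485403 (minus) for Cat and chr8:122432941-122433190 (minus) for Cyba. Capitals mark matches on either strand to the kappaB consensus bound by NF-kappaB, or to the antioxidant response element core TGACNNNGC bound by NRF2.
Sod1: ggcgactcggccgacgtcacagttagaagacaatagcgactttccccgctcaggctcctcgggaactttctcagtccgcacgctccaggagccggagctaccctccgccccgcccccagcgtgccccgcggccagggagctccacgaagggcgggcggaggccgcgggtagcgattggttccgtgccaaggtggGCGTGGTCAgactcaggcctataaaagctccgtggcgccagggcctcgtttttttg
Sod2: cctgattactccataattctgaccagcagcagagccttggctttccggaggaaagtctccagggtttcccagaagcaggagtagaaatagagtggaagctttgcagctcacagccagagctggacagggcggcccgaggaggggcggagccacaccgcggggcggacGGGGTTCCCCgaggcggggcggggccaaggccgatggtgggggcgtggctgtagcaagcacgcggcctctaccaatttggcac
Cat: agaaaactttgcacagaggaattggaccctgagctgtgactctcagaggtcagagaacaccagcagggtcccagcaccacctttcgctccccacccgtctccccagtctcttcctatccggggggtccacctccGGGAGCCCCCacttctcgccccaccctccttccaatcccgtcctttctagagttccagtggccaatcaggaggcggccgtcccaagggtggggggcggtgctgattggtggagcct
Cyba: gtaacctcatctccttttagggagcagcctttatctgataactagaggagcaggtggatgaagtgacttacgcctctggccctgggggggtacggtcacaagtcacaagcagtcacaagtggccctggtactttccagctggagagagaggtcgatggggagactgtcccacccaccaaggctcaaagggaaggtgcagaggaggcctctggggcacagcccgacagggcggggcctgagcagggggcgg

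The Sod2 window held 1 kappaB match, on both strands, 83 to 74 bases before the start. The Cat window also held 1 kappaB match, on both strands, 116 to 107 bases before the start. In the Sod1 window there was no kappaB match but 1 antioxidant core, on the minus strand, 56 to 48 bases before the start. Neither motif was found in the Cyba window, nor in those of Nox4, Cybb, Ncf1 and Duox2. Nox1 had 1 kappaB match, 91 to 82 bases before its start. Of 32851 promoter windows of this length 7.25% held a kappaB match and 10.2% an antioxidant core, on either strand. The 2 motifs did not overlap in these windows. A match describes letters in the sequence and no binding was measured.

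The values are linear MAS5 signals. Every array had the same mean of 1500.01 after trimming 2% at each end, and array medians lay between 192.2 and 232.3. Of the probe sets, 22519 with a mean log2 signal at or above the median were tested, the dimmest at a geometric mean of 193.7. The 3'/5' signal ratio of the beta-actin controls, which reflects how intact and evenly labelled the RNA was, came to 1.22 to 1.26 on vehicle, 1.32 to 1.35 on hydrogen peroxide and 1.46 to 1.55 on interleukin arrays. For Tfrc it ran from 1.85 to 2.14, 2.30 to 3.54 and 3.05 to 3.95 in that order of groups, for Pcx from 1.59 to 1.66, 2.03 to 2.89 and 2.30 to 2.46, and for Gapdh from 0.825 to 0.873 over all arrays. For 3 of the 4 controls the ratios of the treated arrays all lay above those of the vehicle arrays, and their part in the results was not tested. Of 8 markers of the renin cell and pericyte lineage, 6 had a probe set of their own and 3 were tested, namely Pdgfrb, Acta2 and Cspg4. The other 3 with a probe set, Rgs5, Mcam and Des, did not meet the filter and gave 45.8 to 387.7 over the 6 arrays. The defining Ren1 and Akr1b7 are not analysed here, so the labelled cell type was checked only through these 6 markers. The summed signal of the 6 was 16586 to 16867 with vehicle, 18593 to 18926 with hydrogen peroxide and 24080.0 to 31051 with interleukin. Pdgfrb and Acta2 rose under interleukin (log2 0.56, adjusted p = 0.00327, and 0.99, adjusted p = 0.00305), each lost only without the trend (0.0501 and 0.0542), while the change of Cspg4 was -0.63 and did not pass. All 6 endothelial and all 6 epithelial markers had a probe set. Among them Kdr, Epcam and Aqp2 met the filter, and Kdr alone made up most of the endothelial sum, which was 13535 to 15961 with vehicle, 10857 to 11689 with hydrogen peroxide and 8475 to 11920.0 with interleukin. Kdr, a VEGF receptor, fell under interleukin (log2 -0.60, adjusted p = 0.0194), a call lost in 3 of 16 alternatives (up to 0.160: without the trend, vehicle array 2 or interleukin array 1), and its log2 change under hydrogen peroxide was -0.41. Epcam and Aqp2 did not pass, and the epithelial sum was 789 to 1176 over all arrays. The part of these marker differences in the member results was not tested. The RNA came from whole cultures, so less RNA per cell and fewer cells expressing a gene cannot be told apart.

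Sod2, the mitochondrial dismutase, had 4 probe sets, and all 4 were tested. The probe set 1448610_a_at read 6979.5 and 6521 in the vehicle cultures, 7464.5 and 7079.8 with hydrogen peroxide, and 34349.9 and 34189 with interleukin. Both interleukin cultures lay far above the other 4, and the hydrogen peroxide cultures lay just above the vehicle ones without overlap. Its mean went from 6750.4 ± 324 to 34269.5 ± 114 (SD, n = 2), a 5.08-fold rise under interleukin with a log2 change of 2.34 ± 0.09 (SE, 95% interval 2.15 to 2.54, limma adjusted p = 1.8e-07). At 1417193_at the values were 6422 and 6511 with vehicle, 7605 and 6403 with hydrogen peroxide, and 35916 and 36443 with interleukin, where the interleukin pair again stood apart and the other 2 groups overlapped. This was a 5.59-fold rise (log2 2.48 ± 0.10, adjusted p = 3.21e-07).

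The dimmer probe sets of Sod2 went the same way. At 1454976_at vehicle gave 1244 and 1083, hydrogen peroxide 1253 and 1262, and interleukin 7683 and 6712, a 6.19-fold rise (log2 2.63 ± 0.14, adjusted p = 1.22e-06). At 1417194_at vehicle gave 233 and 292, hydrogen peroxide 183 and 266, and interleukin 805 and 671, a 2.82-fold rise (log2 1.49 ± 0.30, adjusted p = 0.00755). In both, the 2 interleukin cultures were the highest, by a wide margin. The 3 brighter probe sets passed in all 15 or 16 alternatives each was run in, with adjusted p up to 0.00174. The dimmest passed in 12 of 14 and not without vehicle array 1 (0.0672) or interleukin array 1 (0.0598), over a range from 0.00319.

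Hydrogen peroxide, the product of the dismutases, left no call on Sod2. Against vehicle its 4 probe sets had log2 changes of 0.11 (95% interval -0.09 to 0.30), 0.11 (-0.11 to 0.33), 0.12 (-0.19 to 0.42) and -0.24 (-0.91 to 0.43), with adjusted p from 0.515 to 0.691. The upper ends of the intervals correspond to 1.23-fold, 1.26-fold, 1.34-fold and 1.34-fold. Interleukin and hydrogen peroxide differed directly at all 4 probe sets, by 4.71-fold, 5.18-fold, 5.71-fold and 3.33-fold, with adjusted p of 2.93e-07, 5.26e-07, 2.78e-06 and 0.00527. In the order of levels, vehicle and hydrogen peroxide were neighbours whose difference did not pass the test, although their arrays did not overlap at 1448610_a_at and 1454976_at, and interleukin was the highest.

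**Figure D1:**
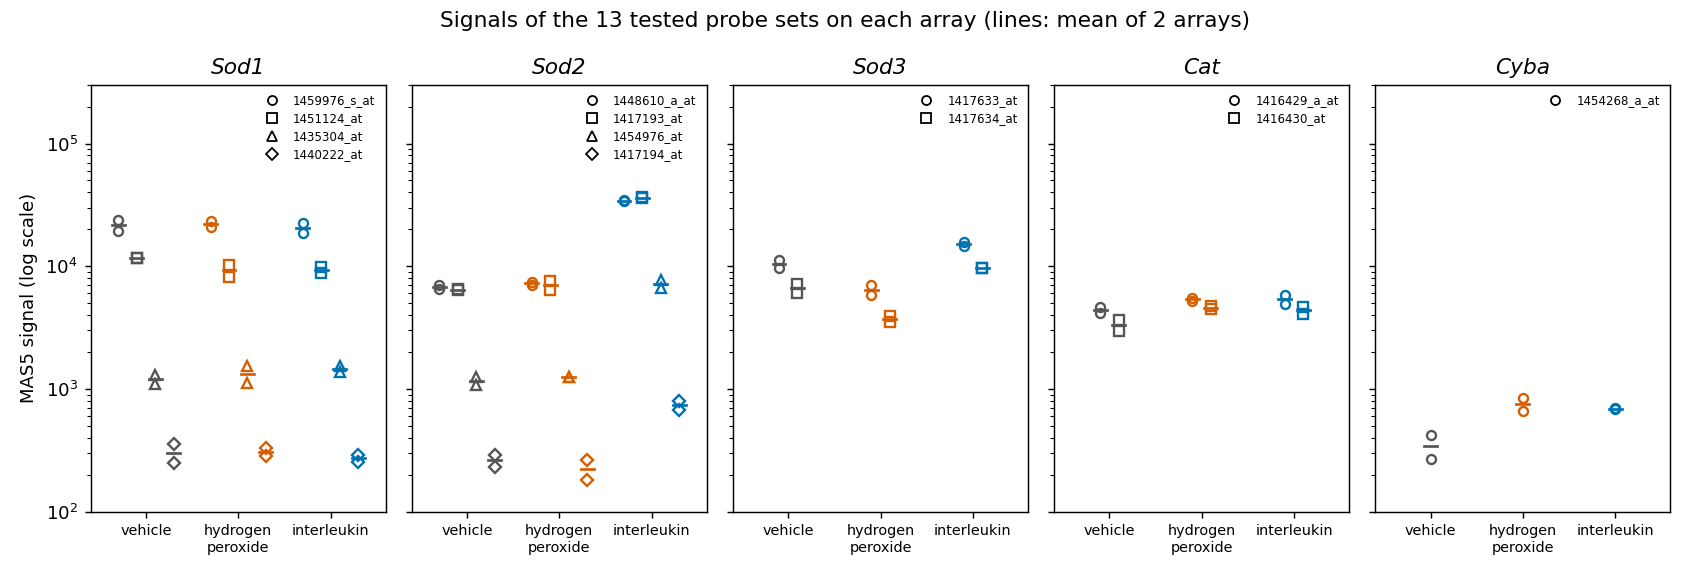
MAS5 signal (log axis) of each tested probe set of Sod1, Sod2, Sod3, Cat and Cyba on the 6 arrays, 1 point per culture, grouped by vehicle, hydrogen peroxide and interleukin. Both interleukin cultures stand at 34189 or above at the first Sod2 probe set while the other 4 lie between 6521 and 7464.5, and the 3 groups of Sod3 are separate at both of its probe sets.

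Sod3, the secreted dismutase, was the member on which the treatments moved in opposite directions. At 1417633_at vehicle gave 11300.0 and 9699, hydrogen peroxide 7050.2 and 5824, and interleukin 15623 and 14688. At 1417634_at vehicle gave 7152 and 6067, hydrogen peroxide 3914.5 and 3496.5, and interleukin 9732 and 9685. The 3 groups did not overlap at either probe set, with hydrogen peroxide the lowest, vehicle between and interleukin the highest. Under interleukin Sod3 rose 1.45-fold (log2 0.53 ± 0.12, limma adjusted p = 0.0122) and 1.47-fold (0.56 ± 0.11, adjusted p = 0.00848). Under hydrogen peroxide it fell to 61.2% and 56.2% of the vehicle level (log2 -0.71 ± 0.12, adjusted p = 0.00799, and -0.83 ± 0.11, adjusted p = 0.00361).

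Directly compared, Sod3 was 2.36-fold and 2.62-fold higher under interleukin than under hydrogen peroxide (adjusted p = 0.0001 and 4.01e-05). That difference passed in all 16 and 15 alternatives run, with adjusted p up to 0.0196. The changes against vehicle, which share the same 2 vehicle arrays, were less firm. Under interleukin they were not called with a variance model that has no trend on signal (adjusted p = 0.0896 and 0.0644) or without vehicle array 2 (0.125 and 0.102), and at 1417633_at also without interleukin array 1 (0.0634). Under hydrogen peroxide they were lost without the trend (0.111 and 0.0827) and without vehicle array 1 (0.0906 and 0.0533). Over all alternatives the adjusted p ran from 0.00614 to 0.125 under interleukin and from 0.00201 to 0.111 under hydrogen peroxide, and the sign of the change held in each of them.

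Sod1, the cytosolic dismutase, had 5 probe sets, of which 4 were tested, and none passed in any comparison. The brightest, 1459976_s_at, read 23825 and 19355 with vehicle, 23203 and 20789 with hydrogen peroxide, and 22408 and 18519 with interleukin, and the 3 groups overlapped. Its suffix marks a probe set that can match several transcripts. Its log2 changes were -0.08 (95% interval -0.34 to 0.19, adjusted p = 0.721) under interleukin and 0.03 (-0.24 to 0.30, adjusted p = 0.908) under hydrogen peroxide.

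One Sod1 probe set lay lower in all 4 treated cultures without passing. At 1451124_at vehicle gave 11732 and 11678, hydrogen peroxide 10335.5 and 8229.8, and interleukin 9907 and 8868.5, so neither treated group overlapped vehicle. How common such separation is over all probe sets was not counted. The log2 changes were -0.32 ± 0.12 (95% interval -0.58 to -0.06, adjusted p = 0.0933) under interleukin and -0.34 ± 0.12 (-0.60 to -0.08, adjusted p = 0.116) under hydrogen peroxide. Among the 4 tested Sod1 probe sets these were the only changes with an unadjusted limma p under 0.05 (0.0207 and 0.0146). The probe sets of Sod1 did not point one way. At 1435304_at vehicle gave 1109 and 1292, hydrogen peroxide 1124 and 1533, and interleukin 1536 and 1376, with log2 changes of 0.28 (adjusted p = 0.338) and 0.13 (adjusted p = 0.720). At 1440222_at the signals were 249.8 to 354 over the 6 arrays and all groups overlapped. Between the treatments the 4 log2 differences were -0.16 to 0.15, with adjusted p of at least 0.641.

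Catalase lay somewhat higher in all 4 treated cultures at both of its probe sets, without passing the test. At 1416429_a_at vehicle gave 4621 and 4172, hydrogen peroxide 5537 and 5255, and interleukin 5858 and 4907. At 1416430_at vehicle gave 3658 and 2968, hydrogen peroxide 4490.1 and 4714, and interleukin 4695 and 4112. No treated culture overlapped the vehicle pair at either probe set, while the treated groups overlapped each other. Such separation is a description only, since its rate over all probe sets was not counted. The log2 changes under interleukin were 0.29 ± 0.12 (95% interval 0.02 to 0.56, adjusted p = 0.137) and 0.42 ± 0.13 (0.12 to 0.71, adjusted p = 0.0578). Under hydrogen peroxide they were 0.30 ± 0.12 (0.03 to 0.56, adjusted p = 0.179) and 0.48 ± 0.13 (0.19 to 0.77, adjusted p = 0.0614). All 4 had an unadjusted limma p under 0.05, from 0.00425 to 0.0371.

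When the filter was made stricter, which leaves fewer probe sets to adjust over, 1416430_at passed under both treatments (adjusted p = 0.0485 and 0.0492). In the other 14 alternatives for each treatment it did not pass, with adjusted p up to 0.373 under interleukin and 0.392 under hydrogen peroxide. Between interleukin and hydrogen peroxide the log2 differences of Cat were -0.01 (95% interval -0.28 to 0.26) and -0.07 (-0.36 to 0.23). As folds of interleukin over hydrogen peroxide these intervals run from 0.826 to 1.196 and from 0.779 to 1.17.

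**Figure D2:**
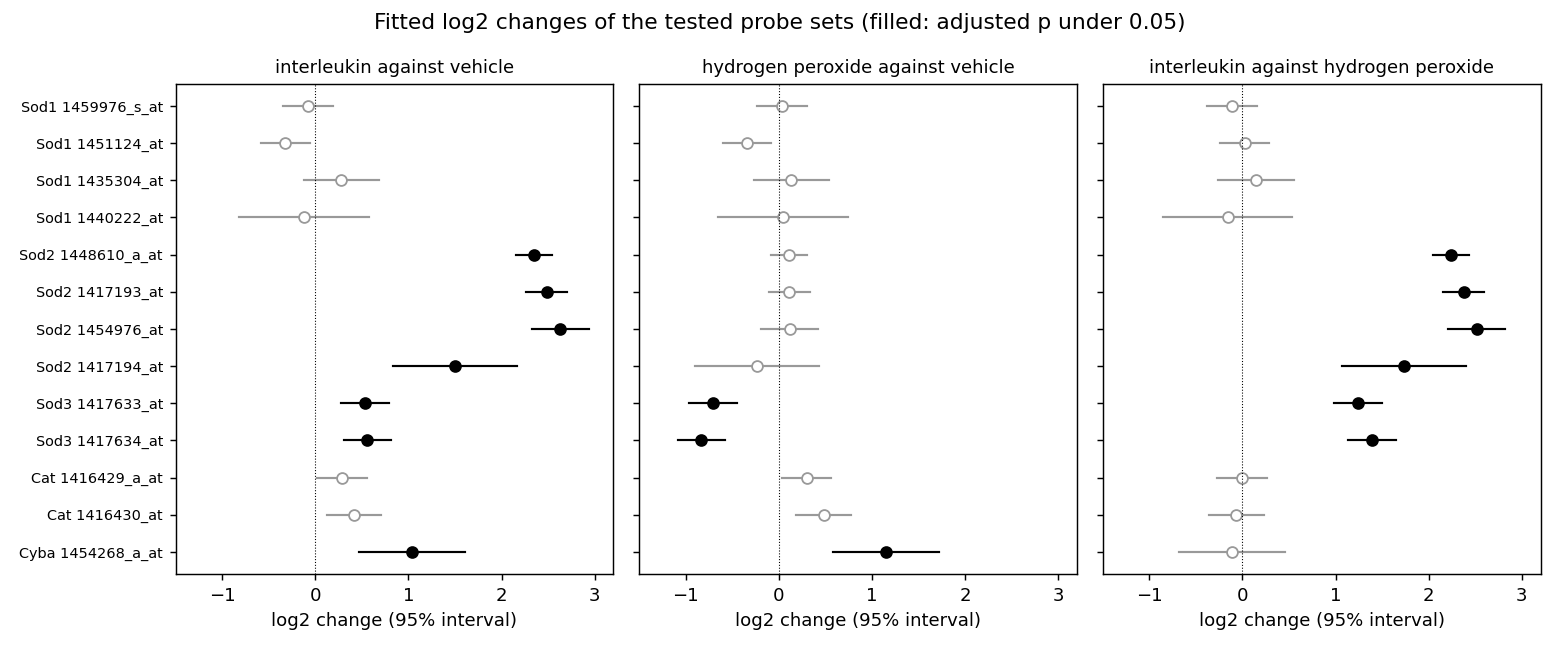
Fitted log2 change with its 95% interval for each of the 13 tested probe sets of Sod1, Sod2, Sod3, Cat and Cyba, 1 panel for each of the 3 comparisons, with filled points for adjusted p under 0.05. Sod2 reaches 2.63 under interleukin and stays near 0 under hydrogen peroxide, Sod3 is on opposite sides of 0 in the first and second panels, and the single Cyba probe set is near 1 in both.

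Cyba, the membrane partner of several oxidases, was measured by 1 probe set, 1454268_a_at. It read 424 and 269 with vehicle, 843 and 667 with hydrogen peroxide, and 691 and 695 with interleukin. All 4 treated cultures lay above both vehicle cultures, and the treated groups overlapped. Cyba rose 2.05-fold under interleukin (log2 1.04 ± 0.26, 95% interval 0.46 to 1.61, limma adjusted p = 0.0213) and 2.22-fold under hydrogen peroxide (1.15 ± 0.26, 0.58 to 1.72, adjusted p = 0.0297). The difference between the treatments was -0.11 (log2, 95% interval -0.69 to 0.46, adjusted p = 0.837), an interval that as a fold of interleukin over hydrogen peroxide runs from 0.622 to 1.37.

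The 2 vehicle cultures of Cyba were far apart for their level, and both comparisons use them. Without vehicle array 2 the log2 changes were 0.71 (adjusted p = 0.165) and 0.82 (adjusted p = 0.213). Under interleukin the call was also lost without interleukin array 1 (0.0791) or 2 (0.0754), without a filter (0.0504) and without the trend (0.0601), with a range over the alternatives from 0.0103 to 0.165. Under hydrogen peroxide it was also lost without hydrogen peroxide array 1 (0.170) or 2 (0.0547), without a filter (0.0692) and without the trend (0.110), with a range from 0.0107 to 0.213. In all 15 alternatives of each comparison the change stayed positive.

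Cyba is abundant in phagocytes, so leukocyte markers are given beside it. All 12 had a probe set and 4 were tested, and their summed signal was 1946 to 2126 with vehicle, 2426 to 2597 with hydrogen peroxide and 2979 to 3016 with interleukin. Of the 4, Cd68, a lysosomal glycoprotein, rose in both treated groups, from 354 and 423 with vehicle to 801 and 796 with hydrogen peroxide (adjusted p = 0.0419) and 1202 and 708 with interleukin (adjusted p = 0.00851). By group means, Cd68 made up most of the rise of the sum in both treated groups. The Cd68 call was lost in 2 of 15 alternatives under interleukin (without vehicle array 1 or interleukin array 1, adjusted p up to 0.0696). Under hydrogen peroxide it was lost in 7 of 15 (up to 0.209), which include each fit without a vehicle or hydrogen peroxide array. Csf1r, Spi1 and Laptm5 did not pass in either comparison. None of the markers was listed at 0, but nor was any other probe set, so this does not show that they were expressed. The 8 untested ones, with the defining Ptprc, Itgam, Adgre1 and Tyrobp among them, gave 6.3 to 253 over the 6 arrays. The part of leukocyte transcripts in the Cyba result was not tested.

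The catalytic subunits Nox4 and Cybb and the organizer Ncf1 gave dim signals at all 8 of their probe sets, none of which met the filter. For Nox4 the 1451827_a_at signals were 6.6 and 51.5 with vehicle, 1.9 and 2.7 with hydrogen peroxide, and 43.3 and 47.3 with interleukin, and the 1419161_a_at signals were 3.5 to 17.2 over all arrays. At 1451827_a_at the vehicle cultures differed widely, with both interleukin values between them and both hydrogen peroxide values below them. For Cybb the 3 probe sets gave 2.5 to 149.4 over all arrays. Interleukin overlapped vehicle at each of them, and hydrogen peroxide did not, lying below vehicle at 2 probe sets and above it at 1. In a fit without the filter these hydrogen peroxide changes had an unadjusted limma p of 0.216 to 0.224. How often groups of 2 arrays failed to overlap over all probe sets was not counted. Ncf1 at 1456772_at gave 77.3 and 104.7 with vehicle, 201 and 200.4 with hydrogen peroxide, and 132 and 179 with interleukin. Here both treated pairs lay above vehicle. At 1451767_at vehicle gave 13.2 and 62.8, hydrogen peroxide 10.4 and 11.1, and interleukin 5.3 and 24.1, with hydrogen peroxide below vehicle. At 1425609_at the signals were 13.8 to 152.6 and all groups overlapped, so the 3 probe sets of Ncf1 did not point one way.

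Together with the remaining, dim probe set of Sod1 (1447761_x_at, 2.2 to 63.4), these 9 probe sets gave 54 values from 1.9 to 201 with a median of 34.5. Only 2 values, those of Ncf1 at 1456772_at under hydrogen peroxide, lay above 193.7. In a fit without the filter limma called 0 of their 27 tests, with 4 at an unadjusted p under 0.05 (1 of Sod1, 2 of Nox4 and 1 of Ncf1). Detection calls were not used here, so whether these transcripts were present cannot be read from the signals.

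**Figure D3:**
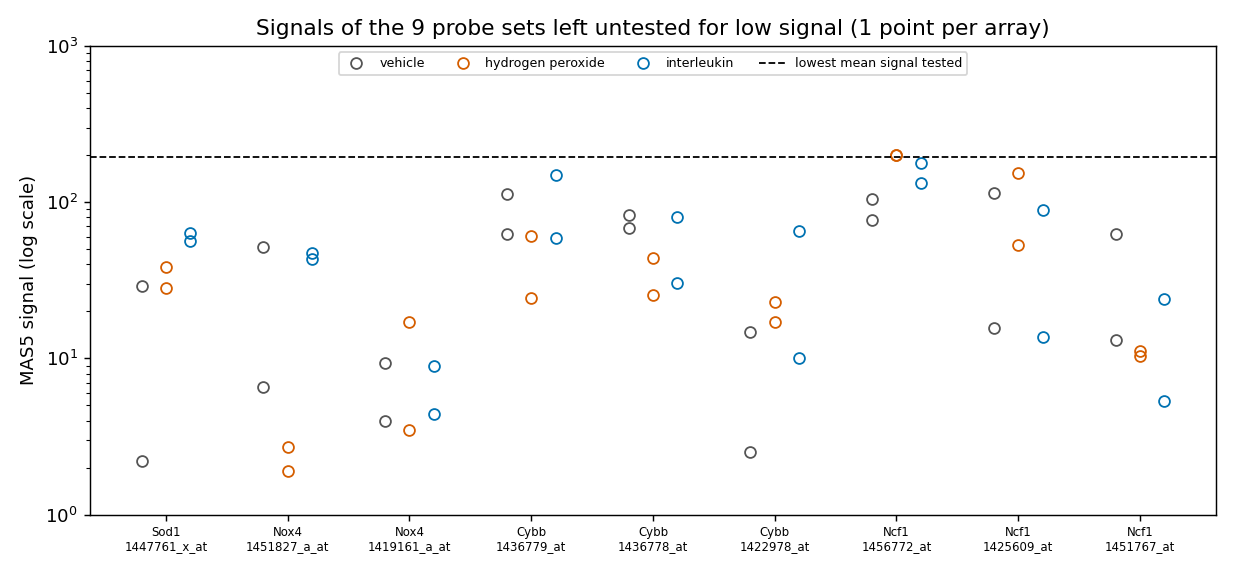
MAS5 signal (log axis) on the 6 arrays of the 9 probe sets of Nox4, Cybb, Ncf1 and Sod1 that did not meet the filter, 1 point per culture, with a line at 193.7, the lowest geometric mean signal tested. The 54 points run from 1.9 to 201 and 2 of them lie above the line.

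Counted over the 13 tested probe sets of the 5 tested genes, 7 rose under interleukin, from Sod2, Sod3 and Cyba, 0 fell and 6 did not pass (9 were higher and 1 lower at an unadjusted p under 0.05 by limma). Over all tested probe sets 7.58% rose and 8.52% fell, and the median log2 change was 0.53 for the members and -0.02 for all. The count is carried by genes with several probe sets: by gene, 3 of 5 rose. Over all 10892 tested genes, each by its brightest probe set, 9.78% rose and 6.61% fell. Since the members were chosen with earlier results of these data known, the counts in this paragraph are a description only. Under hydrogen peroxide 1 rose (Cyba), 2 fell (both of Sod3) and 10 did not pass (3 higher and 3 lower at an unadjusted p under 0.05), beside 3.05% higher and 2.65% lower over all probe sets. The median was 0.11 for the members and 0.02 for all. Of all called probe sets in this comparison 53.5% were higher, or 40.6% when each array was centred on its 75th percentile, under which the 3 member calls remained. Between interleukin and hydrogen peroxide 6 were higher, from Sod2 and Sod3, 0 were lower and 7 did not pass (6 higher and 0 lower at an unadjusted p under 0.05 by limma), beside 4.95% higher and 3.87% lower over all. The median was 0.15 for the members and -0.05 for all.

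Other genes of superoxide and peroxide metabolism were taken as a list of 55, of which 47 had a probe set of their own and 40 were tested, each by its brightest probe set. Under interleukin 7 rose (17.5% of those tested), 2 fell (5.0%) and 31 did not pass, beside 9.78% higher and 6.61% lower over all 10892 tested genes, with a median log2 change of -0.03 for the list and 0.03 for all genes. Under hydrogen peroxide 1 rose (2.5%), 2 fell (5.0%) and 37 did not pass, beside 4.08% and 2.91% over all genes. Interleukin exceeded hydrogen peroxide at 6 (15.0%), was below it at 0 (5 at an unadjusted p under 0.05 by limma) and 34 did not pass, beside 6.30% higher and 4.06% lower over all genes. The medians for these comparisons were -0.03 and -0.001 for the list and 0.06 and -0.04 for all genes.

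Among further subunits and regulators of NADPH oxidases 4 of 12 genes were tested and none passed in any comparison (under each treatment 1 was higher and 1 lower at an unadjusted p under 0.05 by limma). The organizer Noxo1, a relative of Ncf1, read 86.9 and 171 with vehicle, 300.2 and 362 with hydrogen peroxide, and 257 and 318 with interleukin. Both treated pairs lay above vehicle, at log2 1.44 (adjusted p = 0.0676) and 1.23 (adjusted p = 0.0657). The rate of such separation over all probe sets was not counted. Its vehicle mean of 129 is below 193.7, so it met the filter through its treated cultures. The other 3 had log2 changes of -0.22 to 0.06 under interleukin and -0.21 to -0.01 under hydrogen peroxide.

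Other oxidases and related oxidoreductases were the group with most calls, 5 of 11 tested genes higher under interleukin (45.5%, beside 9.78% over all genes). The lists were chosen with earlier results of these data known, so this share is a description only. Xdh, the xanthine oxidoreductase of purine breakdown, read 6701 and 7559 with vehicle, 7751.5 and 9071 with hydrogen peroxide, and 20214.5 and 16057.5 with interleukin. The interleukin pair stood clear of the rest, a 2.53-fold rise (log2 1.34 ± 0.13, adjusted p = 8.88e-05). Aox1, an aldehyde oxidase of the same molybdenum enzyme family, rose 2.50-fold from 336 ± 12.9 to 846 ± 143 (adjusted p = 0.004). With hydrogen peroxide Aox1 read 521 and 698, a 1.80-fold change that did not pass (limma adjusted p = 0.0647). The difference between the treatments did not pass either (1.39-fold, adjusted p = 0.253). Sqor, the mitochondrial sulfide:quinone oxidoreductase, is counted in this group by the list although it passes electrons to ubiquinone, and it rose 2.18-fold from 1836 ± 7.35 to 4007 ± 442 (adjusted p = 0.000462).

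The lysyl oxidases crosslink collagen and elastin and release hydrogen peroxide as they do so. Lox read 32381 and 34309 with vehicle, 20929.5 and 20497 with hydrogen peroxide, and 45949 and 48874 with interleukin. As with Sod3, the 3 groups did not overlap and lay in the same order. Lox rose 1.42-fold under interleukin (log2 0.51 ± 0.07, adjusted p = 0.00126) and fell by 0.69 ± 0.07 on the log2 scale under hydrogen peroxide (adjusted p = 0.00112). Loxl1 rose 1.51-fold under interleukin (log2 0.60 ± 0.10, adjusted p = 0.00231), and its change under hydrogen peroxide was -0.02 (adjusted p = 0.914). Without the trend on signal Lox was not called against vehicle (adjusted p = 0.0518 and 0.0827, over ranges from 0.000439 and 0.000232), nor was Loxl1 (0.0501, over a range from 0.000913). Ero1a, which makes peroxide during disulfide formation in the endoplasmic reticulum, was the 1 list gene that rose under hydrogen peroxide, 1.65-fold from 3326 ± 121 to 5513 ± 913 (adjusted p = 0.0194). Without vehicle array 1, vehicle array 2 or hydrogen peroxide array 2, or without the trend, it did not pass, with adjusted p from 0.00703 to 0.129 over the alternatives.

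Among peroxidases, which remove hydrogen peroxide and organic peroxides, 9 of 13 genes were tested. Under interleukin 1 rose and 1 fell (11.1% each, beside 9.78% and 6.61% over all genes), and under hydrogen peroxide 0 rose, also at an unadjusted p under 0.05 by limma, and 1 fell (11.1%, beside 2.91%). Gpx3, the secreted glutathione peroxidase, read 42546 and 43941 with vehicle, 36625 and 31986 with hydrogen peroxide, and 53234 and 56009.6 with interleukin. Its groups did not overlap, with hydrogen peroxide the lowest and interleukin the highest. Gpx3 fell under hydrogen peroxide (log2 -0.34 ± 0.08, adjusted p = 0.0361), rose under interleukin (0.34 ± 0.08, adjusted p = 0.017) and was 1.60-fold higher under interleukin than under hydrogen peroxide (adjusted p = 0.000467). The fall was lost in 6 of 16 alternatives (adjusted p up to 0.228), among them each fit without a vehicle array, the rise in 5 of 16 (up to 0.1496), and the difference between the treatments in 1 of 16, without the trend (0.0532). Gpx1, the cytosolic glutathione peroxidase, fell under interleukin (log2 -0.34, adjusted p = 0.0378), a call lost in 6 of 16 alternatives (up to 0.193).

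Of 12 genes of thioredoxin and glutathione supply, all tested, 1 rose and 1 fell under interleukin (8.33% each). These shares were near the 9.78% higher and 6.61% lower over all genes. None passed under hydrogen peroxide (3 higher and 0 lower at an unadjusted p under 0.05 by limma), beside 4.08% higher and 2.91% lower over all genes. Glrx, a glutaredoxin that reduces protein-glutathione bonds, read 1319.8 and 1172 with vehicle, 1787 and 1719 with hydrogen peroxide, and 3951 and 4061 with interleukin. It rose 3.22-fold (log2 1.69 ± 0.13, adjusted p = 2.08e-05) and was 2.29-fold above hydrogen peroxide (adjusted p = 0.000294). Gclc, the catalytic subunit of the first step of glutathione synthesis, fell under interleukin from 6269 ± 242 to 4335.5 ± 726 (log2 -0.54 ± 0.13, adjusted p = 0.0156), a call lost in 4 of 16 alternatives (up to 0.119). Gclc, Gpx1 and, under interleukin, Gpx3 were named after their values were seen, as was Noxo1, which was called in no comparison. The 4 genes of copper supply to Sod1 and Sod3 (Ccs, Atox1, Atp7a and Slc31a1) had log2 changes of -0.15 to 0.02 under interleukin and -0.16 to 0.27 under hydrogen peroxide, and none passed. None reached an unadjusted p under 0.05 by limma either.

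**Figure D4:**
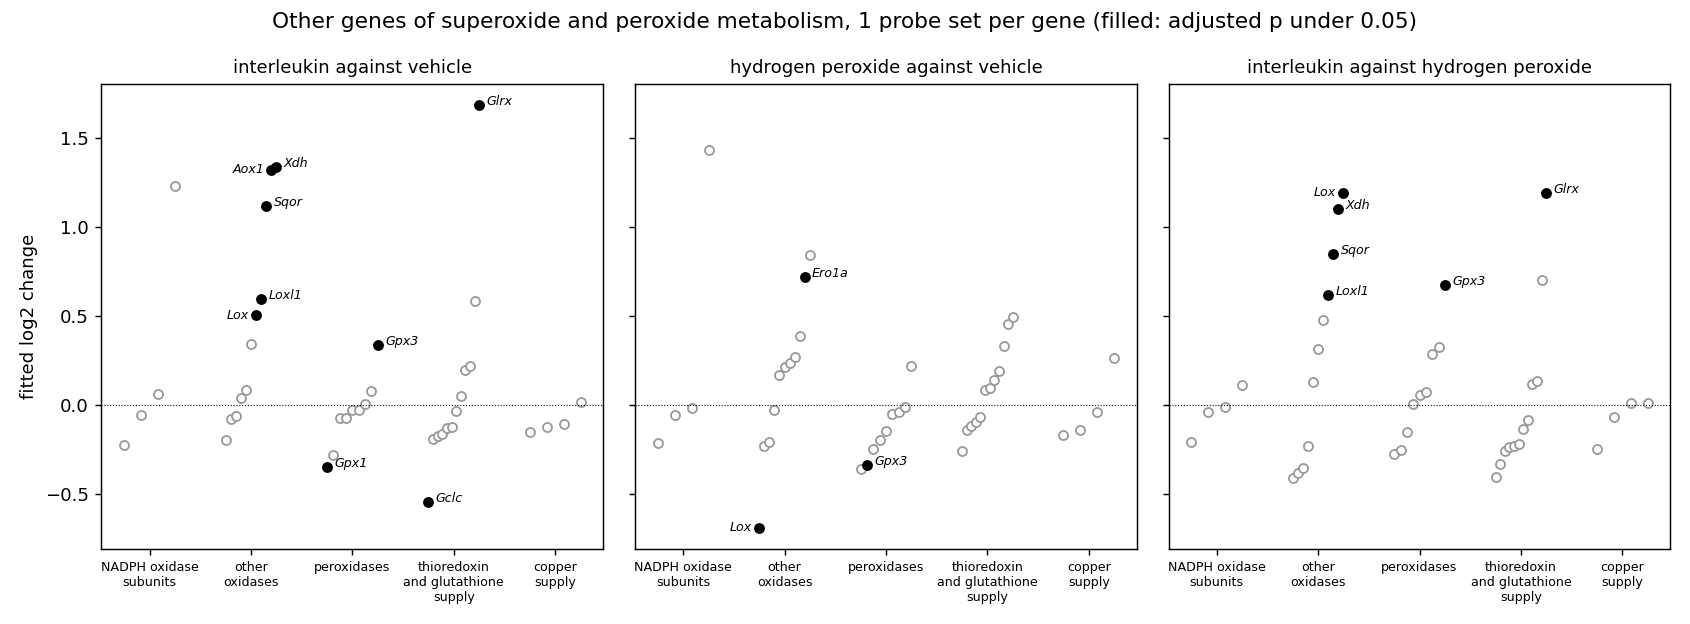
Fitted log2 change of the 40 tested genes of the wider list, 1 point per gene by its brightest probe set, ordered within 5 functional groups and shown for the 3 comparisons, with filled points for adjusted p under 0.05. Under interleukin the 7 filled points above 0 run from Gpx3 at 0.34 to Glrx at 1.69, and under hydrogen peroxide only Ero1a, Lox and Gpx3 are filled.

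Genes whose profile was most like that of a member were found by the root mean square difference of log2 signals over the 6 arrays, each gene taken relative to its vehicle mean, among the 10892 tested genes. For Sod2 they were Ccl7, Slc9a3r1 and Dram1, with differences of 0.10, 0.10 and 0.14. For Sod3 they were Npy1r (0.09), Lox (0.13) and Fads2 (0.14), all higher under interleukin and lower under hydrogen peroxide in fitted value. For Cyba they were Sarm1 (0.13), Enpp4 (0.16) and Ces2g (0.16). This is a description with no test.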

How the data were processed

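RNA of 6 As4.1 cultures was measured on Affymetrix mouse genome arrays. The deposited values are intensities, namely linear MAS5 signals that the authors computed for each probe set, per the submitters' processing notes, with the version not given in the sources used here. Signals were log2 transformed without a pseudocount. After 64 controls were left out, probe sets with a mean log2 signal at or above the median were compared in R 4.3.3 with limma 3.58.1. One linear model covered all 6 arrays, variances were moderated with a trend on mean signal, and p-values were adjusted by Benjamini-Hochberg over all 22519, with calls at 0.05. Folds are ratios of geometric means, and intervals are 95% intervals of the moderated estimate. With 2 arrays per group their number limits the precision.

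Of the probe sets 34945 had 1 symbol, of which 34741 were matched in the RefSeq gene table, 932 had several and 9160 had none listed. A gene outside the members was represented by its brightest probe set. Named genes were all members and, in the wider list, up to 6 called genes of smallest p per comparison, with exceptions stated where they occur, and the copper supply genes are named only as a group. The members and lists were chosen with earlier results of these data known. Genes of the wider list without a probe set of their own are not analysed here. The alternatives run were leaving out each array, a replicate block, 4 arrays only, no trend, a stricter or no filter, 1 probe set per gene, only probe sets specific by their suffix, an added pseudocount of 32, quantile normalization and 75th percentile centring. Only the main limma fit was run on simulated data, with normal noise whose spread followed mean signal and changes added to the interleukin group. The other steps were not simulated.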

Additional observations from a re-analysis of the deposited data

How the results depend on the processing

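The counts rest on 2 arrays per group and on the variance model. Of the 7 member probe sets called for interleukin against vehicle, 4 were called without a trend on signal, 3 when each gene had 1 probe set, which leaves 5 to test, and 4 to 7 when 1 array was left out. Of the 3 for hydrogen peroxide against vehicle, 0 were called without the trend, where 4 had an unadjusted p under 0.05 by limma, and 1 to 3 with 1 array left out. Between the treatments the count was 6, or 2 with 1 probe set per gene. In the wider list the 9 calls under interleukin became 4 without the trend, and the 3 under hydrogen peroxide became 0 without it and 1 to 4 with 1 array left out. The replicate block left these counts as they were, though it ended the call of the marker Cd68 under hydrogen peroxide. With it the members gave 7, 3 and 6 calls and the list 9, 3 and 6. The deviations of same-numbered arrays from their group means correlated at 0.11, 0.05 and -0.13 for the 3 pairs of groups. With 2 arrays per group such low values cannot exclude a pairing of small effect, so whether the replicate numbers pair the arrays is not known. Over all probe sets the calls were 3627, 1282 and 1987, and 1783, 57 and 716 without the trend. Without vehicle array 1 or 2 they were 1554 and 1573 under interleukin and 235 and 265 under hydrogen peroxide, and without a filter the latter were 762. Without hydrogen peroxide array 1 or 2 that count was 391 and 675, and without array 2 the treatments differed at 839. With 1 probe set per gene the interleukin count was 2128. No call of a member reversed under any alternative, and of the single results 21 called values lost and 2 uncalled values gained a call. The cause of these changes was not tested, beyond fewer arrays or probe sets where those were left out.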
